A study of Bos taurus with 46 samples.

Results

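The genes described are the bovine MHC class II genes BOLA-DQB, BOLA-DQA1, BOLA-DQA2, BOLA-DQA5, BOLA-DRA, BOLA-DRB3, BOLA-DMA, BOLA-DMB, BOLA-DOA and BOLA-DOB in white blood cells of pregnant heifers. These 10 genes were chosen by symbol, after the DQ genes had been seen in these same libraries to be present in some heifers and nearly absent in others, so their on or off pattern is given as a description with no test. Of the 10, 9 are in the count table, which holds 30675 genes. BOLA-DQA1 is not listed there under that symbol. A gene that RefSeq gives the older name BoLA-DQA1, LOC100848815, is in the table and is described under its own symbol beside the 9.

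Blood was drawn from 23 Angus crossbred heifers on day 55 (D55) and again on day 105 (D105) of pregnancy, and the leukocyte RNA of each draw was sequenced, which gives 46 libraries. In the AI group, 8 heifers were pregnant by artificial insemination. The others had received in vitro produced (IVP) embryos, 6 with fetuses of normal weight (IVP-Normal, ARTnormal in the labels) and 9 with an overgrown fetus (IVP-LOS, ARTLOS in the labels), large offspring syndrome (LOS) being defined by fetal weight at D105. All heifers, those of AI too, had their oestrus synchronised with a progesterone insert and prostaglandin and were given GnRH. Per the study's methods some heifers of both IVP groups carried 2 fetuses, and the part of litter size in the levels below was not tested. The 2 libraries of a heifer are repeated samples of 1 animal. The libraries of AI and IVP-LOS on D105 carry a sample code beginning BACKUP and all others a code beginning New, so these sets cannot be told apart from the day in AI and IVP-LOS, or from the IVP-Normal group on D105.

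MHC class II molecules are pairs of an alpha and a beta chain on the surface of B cells, monocytes and dendritic cells, where they show peptides from ingested proteins to CD4+ T cells. DR and DQ are the classical molecules that carry the peptide. DM exchanges peptides inside the cell, and DO, made mainly in B cells, restrains DM. In cattle the classical genes and the DM and DO genes sit in separate clusters of the same chromosome, and the number of DQ genes is known to differ between haplotypes.

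Between 18692653 and 24502012 reads per library were assigned to genes. Levels are given in CPM, the usual depth-scaled count of a gene relative to all reads assigned to genes, with trimmed-mean (TMM) scaling factors, and 1 CPM was worth 22.9 reads in the library of median depth. CPM is not divided by gene length, so levels are compared between heifers and not between genes. A gene was called off below 1 CPM. Between 7.72% and 9.55% of read pairs had aligned to several places and were left uncounted by the authors' counting, so near-identical DQ and DRB copies can lose reads or take those of another copy, and how many was not tested. The authors aligned to the reference genome with settings adjusted for specificity. Reads of DQ alleles unlike the reference may thus be uncounted, which was not tested either. A low or off level here means few counted reads. In whole white cells, fewer cells of a type and less RNA per cell cannot be told apart. B cell markers were present in every group, with a summed level of 10 genes between 1940 and 7639 CPM over all libraries, and none of the 10 was at 0 throughout a group.

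Heifer 517 of the AI group departed from its own earlier library. BOLA-DQA5 had 1522 reads on D55 and 0 on D105 in this heifer, and BOLA-DQB had 2565 reads on D55 and 0 on D105. Only 2 further genes went from at least 100 reads on D55 to 3 or fewer on D105 there, LOC512440 and RBM44, named after their values were seen. In the other 22 heifers this happened to between 0 and 2 genes. Another 4 genes of heifer 517 went the other way, LOC101907753, SLC28A3, TGFA and ZFYVE28, and in other heifers 0 to 23 genes did. Counting both ways, 8 genes switched between its own libraries. Against the D105 libraries of other heifers the fewest was 7 and the median 23, so by this count its own was not the nearest. Over all genes the D105 library of heifer 517 still resembled its own D55 library more than that of any other heifer (r = 0.409 of the deviations from the group means).

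The cause was not tested. Without this D55 library the AI median on D55 was 0.253 CPM for BOLA-DQB, 64.3 for BOLA-DQA2 and 21.3 for BOLA-DQA5, the last against 44.4 with it, and no member was called by the unblocked quasi-likelihood fits of the comparisons that hold it.

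BOLA-DQB encodes a DQ beta chain and was the member with the widest range. In AI on D55 it ran from 0 to 360 CPM with a median of 0.278, and on D105 from 0 to 283 with a median of 0.1996. In IVP-Normal it ran from 0.0906 to 540 CPM on D55 with a median of 375, and from 0 to 404 on D105 with a median of 306. In IVP-LOS it ran from 0.0412 to 3.95 CPM on D55 with a median of 0.635, and from 0 to 2.75 on D105 with a median of 0.176. High levels were thus seen in AI heifer 546 and IVP-Normal heifers 519, 560, 628 and 688 on both days, and in AI heifer 517 on D55. No library of the 9 IVP-LOS heifers was among them.

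By the 1 CPM rule, BOLA-DQB was off in 14 heifers on D55 and in 15 on D105. The highest level called off was 0.936 CPM and the lowest called on was 1.11 CPM, both within a low range. The 3 IVP-LOS heifers called on, 616, 656 and 664, had between 1.11 and 3.95 CPM, and the next higher library had 113.7 CPM. No library lay between those levels, and with a limit of 5 CPM the gene was on in 5 heifers on both days and off in 17 on both.

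**Figure D1:**
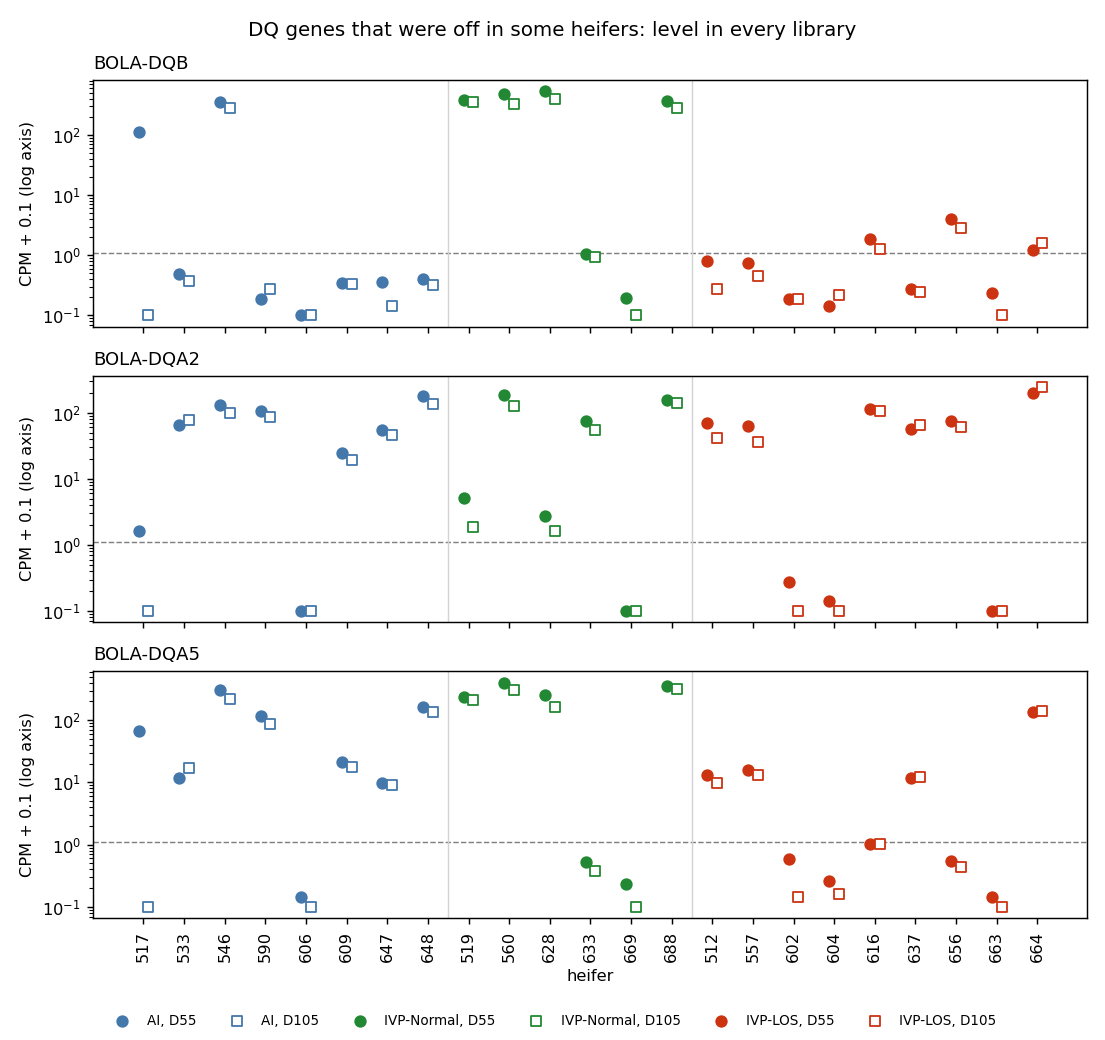
Level of BOLA-DQB, BOLA-DQA2 and BOLA-DQA5 in every library, as CPM + 0.1 on a log axis, by heifer (x axis) with D55 as filled circles and D105 as open squares. The dashed line is the off limit of 1 CPM; points of a heifer lie close together except in heifer 517, and the BOLA-DQB levels of the IVP-LOS heifers all lie at or below 3.95 CPM.

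BOLA-DQA2, a DQ alpha chain gene, was off in 5 heifers on D55 and in 6 on D105. In AI it ran from 0 to 181 CPM on D55 (median 59.3) and from 0 to 134 on D105 (median 61.3). In IVP-Normal it ran from 0 to 188 CPM on D55 (median 39.7) and from 0 to 141 on D105 (median 28.3). In IVP-LOS it ran from 0 to 199 CPM on D55 (median 62.0) and from 0 to 246 on D105 (median 41.0). The same heifers, AI 606, IVP-Normal 669 and IVP-LOS 602, 604 and 663, were off on both days, and the 3 groups overlapped over nearly their whole range.

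Heifers 519 and 628 held BOLA-DQA2 at 5.01 and 2.63 CPM on D55 and at 1.77 and 1.52 CPM on D105, just above the off limit. The highest level called off was 0.176 CPM and the lowest called on was 1.51 CPM. The reads behind the off calls were few, with 0 reads in 9 of the 46 libraries and 3 or fewer in 10.

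BOLA-DQA5, another DQ alpha chain gene, was off in 8 heifers on D55 and in 9 on D105. In AI it ran from 0.0425 to 305 CPM on D55 (median 44.4) and from 0 to 219 on D105 (median 17.3). In IVP-Normal it ran from 0.136 to 403 CPM on D55 (median 243) and from 0 to 313 on D105 (median 186). In IVP-LOS it ran from 0.0448 to 135 CPM on D55 (median 0.914) and from 0 to 140 on D105 (median 0.920). On both days it was on in 4 of 9 IVP-LOS heifers, 4 of 6 IVP-Normal heifers and 6 of 8 AI heifers. The off limit fell in a wide gap, with 0.920 CPM just below it and 8.90 CPM just above.

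The 3 genes combined in few ways. On both days all 3 were off together in heifers 606, 669, 602, 604 and 663. BOLA-DQA2 and BOLA-DQA5 were on with BOLA-DQB off in 8 heifers, 5 of AI and 3 of IVP-LOS, on each day. BOLA-DQA2 was on alone in IVP-Normal heifer 633. At the limit of 1 CPM, no library had BOLA-DQA5 or BOLA-DQB on while BOLA-DQA2 was off. This depended on the limit. At 5 CPM BOLA-DQA2 was off, with both others on, in heifer 628 on both days, 519 on D105 and 517 on D55. Heifer 628 held BOLA-DQA2 at 2.63 and 1.52 CPM beside 540 and 404 CPM of BOLA-DQB. Heifers 560 and 688, both IVP-Normal, had like levels of all 3, with 481 and 369 CPM of BOLA-DQB, 188 and 157 CPM of BOLA-DQA2 and 403 and 354 CPM of BOLA-DQA5 on D55.

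At the 1 CPM limit, the state of a heifer on D55 was its state on D105 in 66 of 69 pairs of a heifer and a DQ gene. The other 3 pairs were the 3 genes of heifer 517. All 3 genes kept their state in 22 of 23 heifers.

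LOC100848815 held most of the DQA reads in most heifers. It was below 1 CPM only in IVP-LOS heifers 616 and 664, with 0.740 and 0.894 CPM on D55 and 0.438 and 0.875 CPM on D105, and IVP-LOS heifer 557 had 3.73 and 3.14 CPM. In all other libraries it had at least 187 CPM. In the 5 heifers with all 3 DQ members off, LOC100848815 took at least 99.9% of the summed CPM of LOC100848815, BOLA-DQA2 and BOLA-DQA5 on both days. That share follows from the grouping, since BOLA-DQA2 and BOLA-DQA5 were each below 1 CPM there.

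In heifer 616 BOLA-DQA2 took 98.6% of that sum on D55 and 98.7% on D105. In heifer 664 BOLA-DQA2 took 59.4% and BOLA-DQA5 40.4% on D55, and 63.6% and 36.2% on D105. The heifers that nearly lacked reads of LOC100848815 had BOLA-DQA2 on, but so had most heifers, 17 of 23 on both days.

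**Figure D2:**
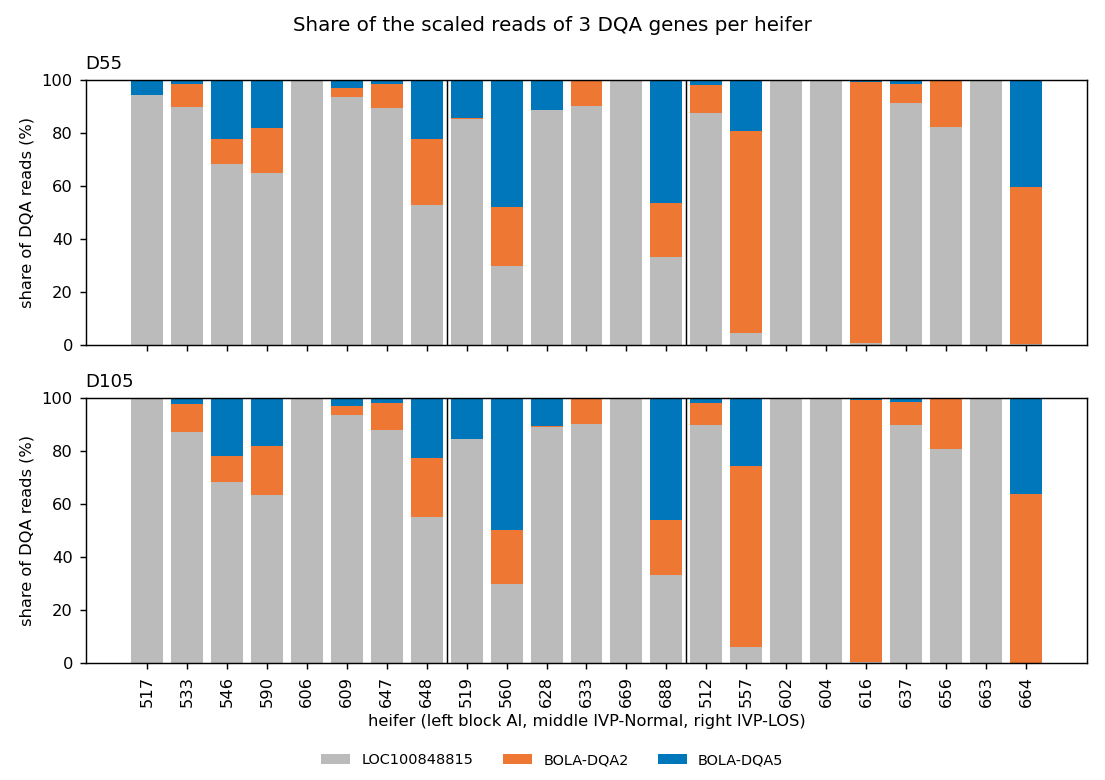
Share of the summed CPM of 3 DQA genes taken by LOC100848815 (grey), BOLA-DQA2 (orange) and BOLA-DQA5 (blue) in each heifer, with D55 above and D105 below, in percent. The bars of most heifers look alike on the 2 days. The blue part of heifer 517 was 5.75% on D55 and 0% on D105. In heifer 557 the orange part went from 76.0% to 68.5% and the blue part from 19.4% to 25.5%.

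The summed DQA level still differed widely between heifers. It ran from 81.5 CPM in IVP-LOS heifer 557 to 2179 CPM in IVP-Normal heifer 628 on D55, a range of 26.7-fold, and from 51.9 to 1504 CPM in the same heifers on D105. The sum of BOLA-DQB and BLA-DQB, the other DQ beta gene in the table, ran from 49.1 CPM in IVP-LOS heifer 616 to 2526 CPM in heifer 628 on D55. BLA-DQB itself was on in every library, between 37.5 and 1986 CPM. Heifers 557 and 616 were low in both sums, and heifer 628 was highest in both on each day.

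The difference between the D55 and D105 libraries of a heifer was set beside that between libraries of different heifers of the same treatment group. For BOLA-DQA2 the median absolute log2 difference of CPM + 0.1 was 0.33 within heifers and 4.12 between them, 12.5 times as large. For BOLA-DQA5 it was 0.46 within and 3.71 between (8.09 times), and for BOLA-DQB 0.42 and 1.82 (4.35 times). Over the 13857 genes with a mean of at least 1 CPM the medians were 0.21 and 0.28, with a median ratio of 1.26. The ratio of BOLA-DQA2 was above that of 99.9% of these genes, and without heifer 517 it was 8.21. The DQ genes were chosen because heifers of these libraries stood far apart in them. Their high ratios and this rank follow in part from that choice and are a description. Without that heifer the ratio was 8.81 for BOLA-DQA5 and 4.31 for BOLA-DQB.

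BOLA-DRB3, the expressed DR beta chain gene, had a ratio of 2.08, with 0.20 within and 0.41 between heifers. Without heifers 604 and 664 its ratio was 1.56. BOLA-DOB had 1.41, BOLA-DMA 1.17, BOLA-DOA 1.01, BOLA-DMB 0.957 and BOLA-DRA 0.929. The last 4 ratios lay below that of the median gene. By the 9 members together, the D105 library nearest to a heifer's D55 library was its own in 13 of 23 heifers.

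**Figure D3:**
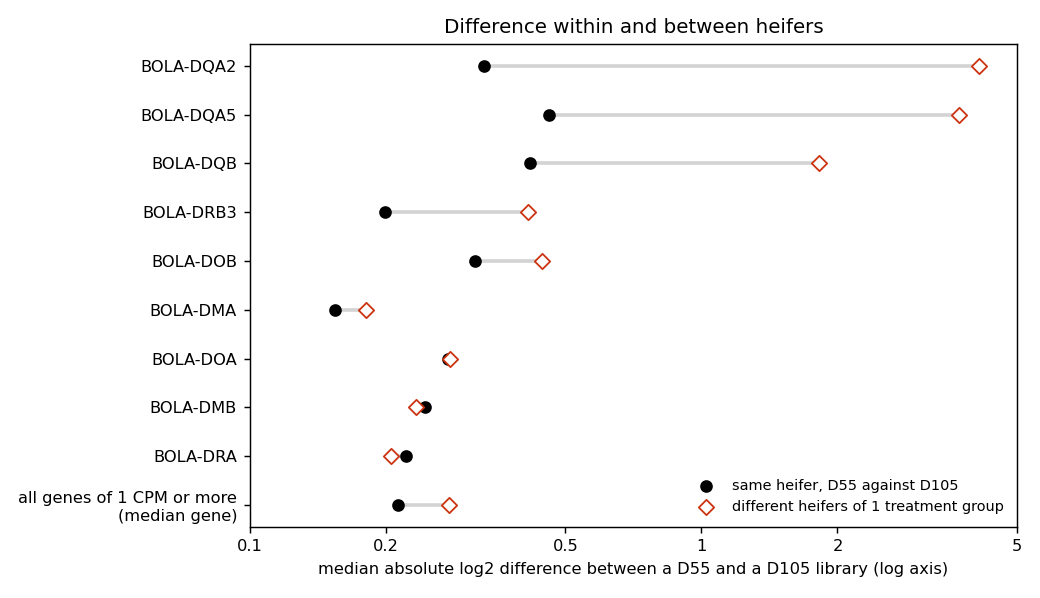
Median absolute log2 difference of CPM + 0.1 between a D55 and a D105 library, on a log axis, for the same heifer (black circles) and for different heifers of a treatment group (open diamonds). The 3 DQ genes, which were chosen for their spread between heifers, have the widest gaps, from 0.33 to 4.12 for BOLA-DQA2. The median gene has 0.21 and 0.28.

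BOLA-DRA, the DR alpha chain gene, was on in every library and varied little. It ran from 2302 to 3014 CPM in AI on D55 (median 2700) and from 1877 to 2863 on D105 (median 2346). In IVP-Normal it ran from 2593 to 3695 CPM on D55 (median 2920) and from 2482 to 2668 on D105 (median 2608). In IVP-LOS it ran from 2326 to 3428 CPM on D55 (median 2681) and from 1962 to 2694 on D105 (median 2242). Its coefficient of variation over the 23 heifers was 13.0% on D55 and 11.4% on D105, against 16.9% and 21.3% for the median gene.

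BOLA-DRB3 was also on throughout but spanned 3.22-fold over heifers on D55 and 4.47-fold on D105. In AI it ran from 586 to 1744 CPM on D55 (median 770) and from 465 to 1463 on D105 (median 707). In IVP-Normal it ran from 617 to 1889 CPM on D55 (median 1352) and from 612 to 1292 on D105 (median 1193). In IVP-LOS it ran from 624 to 1882 CPM on D55 (median 763) and from 471 to 2078 on D105 (median 673). Heifer 664 held the highest level of IVP-LOS on both days and the next heifer had 851 CPM on D55, while heifer 669 was the lowest of IVP-Normal on both days.

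BOLA-DMA and BOLA-DMB encode the chains of DM. BOLA-DMA ran from 165 to 269 CPM on D55 over all 23 heifers (median 205) and from 134 to 239 on D105 (median 195). BOLA-DMB ran from 311 to 571 CPM on D55 (median 427) and from 277 to 529 on D105 (median 395). Heifer 590 of AI was lowest for both genes on both days.

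BOLA-DOA and BOLA-DOB encode the chains of DO. BOLA-DOA ran from 194 to 382 CPM on D55 (median 267) and from 128.8 to 369 on D105 (median 238). BOLA-DOB ran from 92.3 to 314 CPM on D55 (median 144) and from 84.1 to 427 on D105 (median 150). Its highest D105 levels were 427 CPM in IVP-Normal heifer 633 and 381 CPM in IVP-LOS heifer 604, both more than 1 log2 unit above the D55 level of the heifer (1.39 and 1.67).

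**Figure D4:**
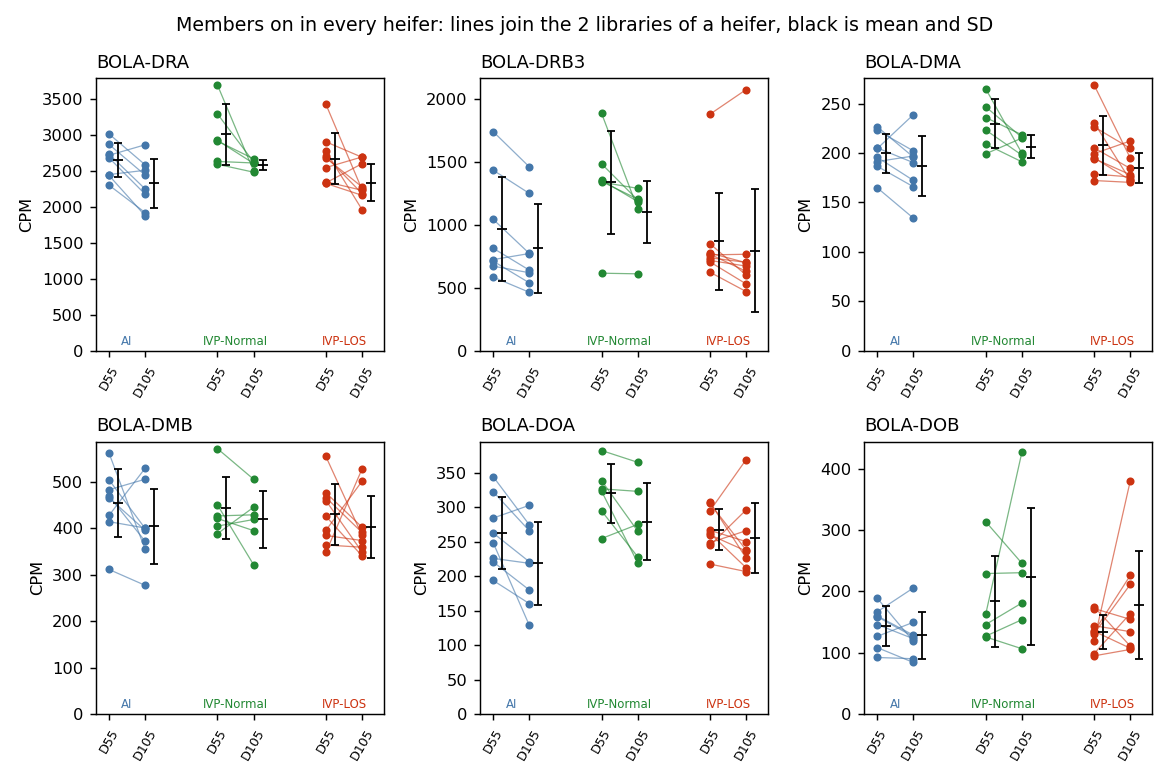
CPM of the 6 members on in every heifer, by treatment group and day, with a line joining the libraries of a heifer and the mean and SD in black. BOLA-DRA and BOLA-DMA keep within 2-fold over heifers, BOLA-DRB3 has 1 IVP-LOS heifer far above its group, and BOLA-DOB is far higher on D105 than on D55 in 1 heifer of IVP-Normal and 1 of IVP-LOS.

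The treatment groups were compared on each day with edgeR's quasi-likelihood test across all genes, and a gene was called at a Benjamini-Hochberg adjusted p of 0.05 or less. No member was called in any of the 6 comparisons, in each of which the background was 0% of the genes tested (15236 to 15484 genes), so members and other genes were alike in this. At an unadjusted p under 0.05 there were between 501 and 1522 genes per comparison, and 0 to 5 of the 8 or 9 members tested. BOLA-DQB was tested in the comparisons that hold IVP-Normal and was removed by the filter on low counts in those of IVP-LOS with AI. The comparisons share groups and are not independent of each other.

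BOLA-DQB came nearest to a call between IVP-LOS and IVP-Normal. Its reads on D55 ran from 1 to 98 per library in IVP-LOS and from 2 to 12109 in IVP-Normal, and the groups overlapped at the low end through heifers 633 and 669. The fitted log2 difference, IVP-LOS minus IVP-Normal, was -8.23 (SE 1.23, adjusted p = 0.0752 by edgeR's quasi-likelihood test) on D55 and -8.32 (SE 1.32, adjusted p = 0.174) on D105. These fits treat heifers with high levels and heifers with few or no reads as 1 spread. The size is therefore a description of group means and not of a shift within heifers.

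Whether BOLA-DQB was called between these groups depended on the test. Each test fits a common spread to levels that fell apart into high and low heifers. BOLA-DQB was also chosen with its pattern in these libraries known. The adjusted p-values below are therefore given as output of the tests and not as a measure of support for a group difference. On D55 it was called by the DESeq2 likelihood ratio test (adjusted p = 1.68e-04, background 0.0194% of genes), by edgeR's likelihood ratio test (adjusted p = 4.63e-06, background 0.00647%, which is BOLA-DQB alone) and by the quasi-likelihood test with no filter on low counts (adjusted p = 0.0474, background 0.00417%). On D105 it was called by DESeq2 (adjusted p = 0.00467, background 0.084%) and by edgeR's likelihood ratio test (adjusted p = 2.22e-04, background 0.0258%). Without heifers 604 and 664 the quasi-likelihood adjusted p was 0.256 on D55 and 0.58 on D105, at log2 differences of -8.07 and -8.37.

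Other members between IVP-LOS and IVP-Normal had smaller differences that did not pass. BOLA-DQA5 differed by -3.40 (SE 1.36) on D55 and BOLA-DRB3 by -0.61 (SE 0.24), both with adjusted p = 0.839 by edgeR. BOLA-DOA differed by -0.24 (SE 0.09) and BOLA-DOB by -0.44 (SE 0.19) on D55, also at adjusted p = 0.839. All 9 members were on the lower side in IVP-LOS on D55 and 8 of 9 on D105, with a median log2 difference of -0.24 and -0.15 against 0.00 and 0.03 over all genes tested. Without heifers 604 and 664 the members' median was -0.40 on D55, with 8 of 9 below 0, and -0.30 on D105, with 9 of 9 below 0. On D55 the median of the summed B cell marker level also stood lower, with levels between 3071 and 6607 CPM (median 4330) in IVP-LOS and between 5145 and 7585 CPM (median 5593) in IVP-Normal. On D105 it ran from 2705 to 7639 CPM (median 4460) in IVP-LOS and from 3980 to 7025 CPM (median 4581) in IVP-Normal, and the groups overlapped on both days. The part of B cells in these differences was not tested in that comparison.

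Between D55 and D105, most members stood slightly lower on the later day. In AI the log2 difference, D105 minus D55, was below 0 for 8 of 8 members tested (median -0.21, against -0.02 over all genes). It was below 0 for 8 of 9 in IVP-Normal (median -0.23, against -0.03) and for 7 of 8 in IVP-LOS (median -0.08, against 0.01), with BOLA-DOB the exception in both. The IVP-LOS median was -0.25 without heifers 604 and 664 and -0.17 with heifer as a replicate block. None was called by edgeR's quasi-likelihood test, where the background was 9.95% of genes in AI, 2.45% in IVP-Normal and 0.251% in IVP-LOS.

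BOLA-DRA was lower on D105 in 6 of 8 AI heifers, 6 of 6 IVP-Normal heifers and 7 of 9 IVP-LOS heifers. Its log2 difference was -0.18 (SE 0.09, adjusted p = 0.239) in AI, -0.23 (SE 0.10, adjusted p = 0.343) in IVP-Normal and -0.19 (SE 0.09, adjusted p = 0.367) in IVP-LOS by edgeR without a block. BOLA-DOB went the other way in IVP-LOS, by 0.40 (SE 0.22, adjusted p = 0.473), and by 0.06 (SE 0.18) without heifers 604 and 664.

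With heifer as a replicate block, which compares each heifer with itself, BOLA-DRB3 was called in AI. It was lower on D105 in 7 of 8 AI heifers, and its paired log2 difference was -0.24 (SE 0.06, adjusted p = 0.0233 by edgeR) against adjusted p = 0.658 without the block. The background of the paired fit was 17.1% of genes in AI, so 1 call among 8 members is near the share of all genes. The call was lost when heifer 546, 590, 609, 647 or 648 was left out, with adjusted p between 0.0501 and 0.0675, and the day in AI cannot be told apart from the library set. In IVP-Normal, where both days are of the same set, the paired difference of BOLA-DRB3 was -0.25 (SE 0.10, adjusted p = 0.198), and no member was called against a background of 5.5%. In IVP-LOS no member was called against 1.07%, and BOLA-DRB3 differed by -0.19 (SE 0.07, adjusted p = 0.214).

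**Figure D5:**
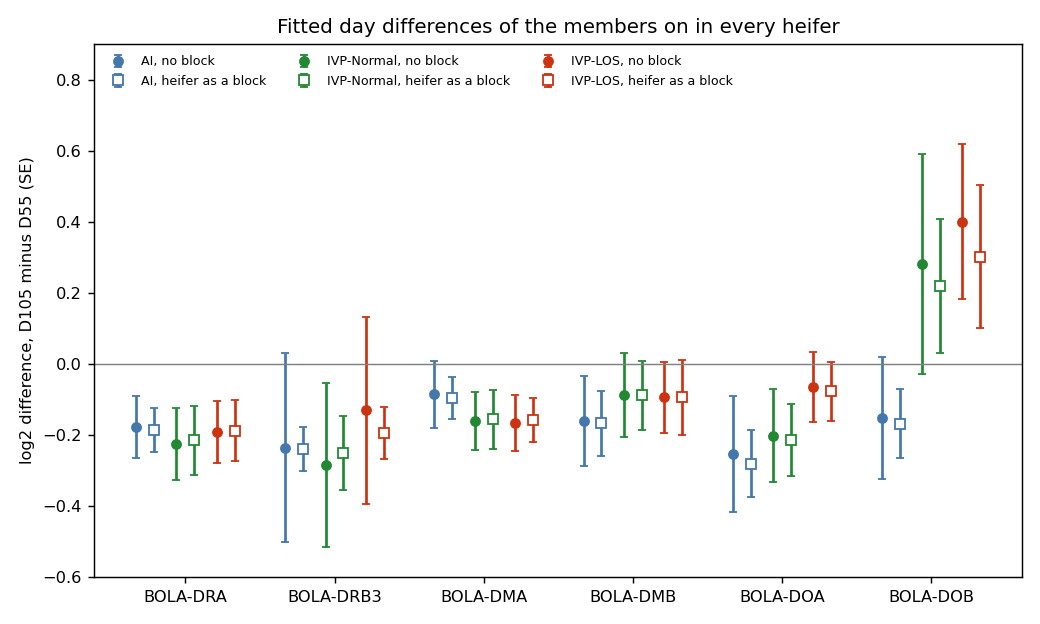
Fitted log2 difference, D105 minus D55, with its SE for the 6 members on in every heifer, by treatment group, without a block (filled circles) and with heifer as a block (open squares). Most values lie below 0, BOLA-DOB lies above 0 in IVP-Normal and IVP-LOS, and the SE of BOLA-DRB3 in AI narrows from 0.27 to 0.06 with the block.

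Neutrophil markers stood higher on D105 in AI and IVP-Normal. The summed level of 4 neutrophil markers in AI ran from 431 to 1084 CPM on D55 and from 1250 to 3145 CPM on D105, without overlap, and the B cell sum ran from 3567 to 5676 CPM on D55 and from 1940 to 5274 CPM on D105. In IVP-Normal the neutrophil sum ran from 259 to 739 CPM on D55 and from 733 to 3611 CPM on D105. In IVP-LOS the days overlapped, from 327 to 1039 CPM (median 743) on D55 and from 259 to 7695 CPM (median 751) on D105, and the B cell medians there were 4330 and 4460 CPM. The part of these markers in the day differences of the members was not tested. In IVP-LOS heifer 604 on D105 the platelet sum was 2534 CPM and the red cell sum 603 CPM, the highest of IVP-LOS for both, and heifers 604 and 664 had the lowest monocyte sums of all heifers that day, 129.2 and 106.8 CPM.

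The day difference itself was then compared between groups. No member was called for IVP-Normal minus AI or for IVP-LOS minus AI, against a background of 0% of 16096 and 16018 genes. BOLA-DOB had the largest such value of the 6 members on throughout, 0.56 (SE 0.29, adjusted p = 0.909 by edgeR) for IVP-LOS minus AI, and without heifers 604 and 664 it was 0.21 (SE 0.26). The members' median of this difference was 0.20, and -0.02 without those heifers. With heifer as a replicate block it was 0.09 in all heifers of these groups, and no member was called.

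The members were fitted along the B cell and monocyte marker levels with treatment group in the fit, on each day apart. Both marker levels were in each fit, so a slope along either is that at a given level of the other. None was called along the B cell level, where the background was 7.37% of genes on D55 and 4.89% on D105, nor along the monocyte level, where it was 1.81% on D55 and 11.1% on D105. Along the B cell level on D55 the log2 slope per doubling of the marker level was above 0 for all 9 members, with a median of 0.63 against 0.00 over all genes. Without heifers 604 and 664 it was below 0 for 2 of 9, with a median of 0.47, and without the D55 library of heifer 517 the median was 0.68. BOLA-DOA had 0.54 (SE 0.20, adjusted p = 0.116 by edgeR) and BOLA-DRB3 1.35 (SE 0.54, adjusted p = 0.139). On D105 the slope of BOLA-DOA was 0.42 (SE 0.20, adjusted p = 0.255), and 7 of 9 members were above 0 with a median of 0.32.

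The rest of the class II pathway was taken from a list of 23 genes in the table, covering transactivation, assembly and loading, turnover and interferon-gamma signalling. None of the 23 was called between treatment groups on either day. In AI 5 were called between the days, against the background of 9.95%. The interferon-gamma receptor genes IFNGR1 and IFNGR2 rose by 0.74 (SE 0.12, adjusted p = 6.2e-04 by edgeR) and 0.56 (SE 0.13, adjusted p = 0.0108). JAK1 and JAK2, the kinases bound to these receptors, rose by 0.25 (SE 0.08) and 0.61 (SE 0.12), and NFYB, a subunit of a factor that binds class II promoters, fell by 0.19 (SE 0.06, adjusted p = 0.0449).

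With heifer as a replicate block 7 of the 23 were called in AI against 17.1%, adding IFI30, a lysosomal reductase of antigen processing, at -0.34 (SE 0.08), and MARCH8, a ligase that takes class II molecules off the surface, at 0.25 (SE 0.07). In IVP-Normal the paired fit called 2 of the 23 against 5.5%, MARCH8 (0.42, SE 0.09) and IFNGR1 (0.61, SE 0.11), and in IVP-LOS none against 1.07%. Along the monocyte level 2 of the 23 were called on D55, against 1.81%, and 7 on D105, against 11.1%, all upward. CTSS, the protease that trims the invariant chain, was called on both days with slopes of 0.61 (SE 0.09) and 0.58 (SE 0.11), and the other on D55 was IFNGR2 (0.43, SE 0.09). Along the B cell level 1 of the 23 was called on each day, IFNGR2 on D55 (0.71, SE 0.18, against 7.37%) and MARCH1, another ligase of class II turnover, on D105 (1.13, SE 0.26, against 4.89%).

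Likeness to each DQ member was measured as the Pearson r of log2(CPM + 0.1) over the 23 heifers, averaged over both days, among 13857 genes. It is a description, since the heifers fall into on and off levels. The genes named are the highest of this search, and their values were not compared with those that chance gives in such a search. BOLA-DQB was most like BOLA-DQA5 (0.678), BOLA-DRB3 (0.651) and GLO1 (0.554), which RefSeq places on the same chromosome. BOLA-DQA2 was most like BOLA-DQA5 (0.656), KIF16B (0.623) and RNASET2 (0.616). BOLA-DQA5 was most like BOLA-DQB (0.678), PLA2R1 (0.660, a gene with a mean of only 1.03 CPM) and BOLA-DQA2 (0.656).

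The other class II genes in the table differed in the same kind of measure. BOLA-DRB2 ran from 11.6 to 44.2 CPM over all libraries and DSB from 8.78 to 99.6 CPM. BOLA-DYB, in the cluster of DM and DO, ran from 1.24 to 7.74 CPM, with its highest levels on D105 in heifers 604 and 633, the heifers highest in BOLA-DOB that day. The ratio of the difference between heifers to that within heifers was 4.13 for BLA-DQB, 3.95 for LOC100848815, 3.48 for BOLA-DRB2, 2.24 for DSB and 1.38 for BOLA-DYB.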

How the data were processed

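Total RNA of white blood cells from 23 heifers on D55 and D105 was sequenced by the authors as paired 100-base reads. Per the labels and the study's methods, reads were trimmed, aligned with HISAT2 2.1.0 to ARS-UCD1.2 and assigned to NCBI genes by HTSeq (union). The deposited table holds these counts unscaled, and 5 summary lines were left out. The Ensembl counts were not used, since no table here pairs their identifiers with names. Members and gene lists were chosen with earlier results of these data known.

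Counts were filtered (filterByExpr, minimum count 10), scaled by TMM and tested with edgeR 4.0.16 (glmQLFit), on the groups compared; all 9 members present, the pathway list and the 3 genes most like each DQ member were named. DESeq2 1.42.0 and other settings were alternatives. The D55 and D105 libraries of a heifer come from the same animal, and their deviations from the group means correlated in every heifer (r from 0.280 to 0.828), so heifer as a block is a true pairing. On simulated data for the D55 comparison of IVP-LOS with IVP-Normal, 95.5% of changes of 2 log2 units and 65.6% of those of 1 were recovered over 15595 genes. With heifer as a block, the day fit in AI recovered 82.8% and 57.3%, against 95.4% and 62.9% without it. The simulated libraries of a heifer were drawn independently, with no likeness between its days. The shares of the block fit therefore do not speak for the paired fit of these data. The day change of IVP-LOS minus AI, without a block, gave 85% and 44.4%, and the B cell slope on D55 gave 65.6% and 22.9%. The simulated levels had no on and off heifers, so these shares do not speak for the 3 DQ genes.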

Additional observations from a re-analysis of the deposited data

Results flagged for a closer look

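The level of each of the 9 members in each of the 6 groups was examined for a heifer far from the rest, 54 groups in all, and 11 were found by Dixon's test. Chance flags about 1 in 20 groups, but 6 of the 11 concern BOLA-DQB, BOLA-DQA2 or BOLA-DQA5, which were chosen because heifers stood far apart in them, and the 2 days of a heifer are not independent, so the count is a description. BOLA-DQB in AI heifer 546 (360 CPM on D55 and 283 on D105) stood above the next heifer at 113.7 and 0.265 CPM, and IVP-LOS heifer 656 had 3.95 CPM on D55 against 1.78 in the next. IVP-LOS heifer 664 stood above its group in BOLA-DQA2 on D105 (246 CPM), in BOLA-DQA5 on both days (135 and 140 CPM) and in BOLA-DRB3 on both days (1882 and 2078 CPM). IVP-Normal heifer 669 was the lowest for BOLA-DRB3 on D105 (612 CPM, the next at 1130). IVP-Normal heifer 628 was the highest for BOLA-DMB on D55 (571 CPM), and IVP-LOS heifer 604 for BOLA-DOB on D105 (381 CPM).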

How the results depend on the processing

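The count of members called was 0 under every alternative except these. Between IVP-LOS and IVP-Normal 1 member, BOLA-DQB, was called on D55 by DESeq2 (log2 -8.26), edgeR's likelihood ratio test (-8.25) and with no filter (-8.24), and on D105 by DESeq2 (-8.35) and edgeR's likelihood ratio test (-8.33). With heifer as a replicate block 1 member, BOLA-DRB3, was called between the days in AI, and leaving out each AI heifer in turn, chosen after seeing the data, gave 0 to 3, with 2 without heifer 517 (BOLA-DRB3, with BOLA-DRA and BOLA-DOA at most). The paired fits changed no other call. The uncalled log2 difference between IVP-LOS and IVP-Normal changed sign without heifers 604 and 664 for BOLA-DQA2 on D105 (0.18 to -0.30) and for BOLA-DMB on D55 (-0.03 to 0.023). Leaving out the D55 library of heifer 517, also chosen after seeing the data, left each count of members called at 0. The ratio of the difference between heifers to that within them moved to 17.5 for BOLA-DQA5 with a pseudocount of 1 CPM and to 8.21 for BOLA-DQA2 without heifer 517. With limits of 0.5 and 5 CPM, or without TMM factors, the heifers off and in the same state on both days stayed within 1.5 times. The count in the same state could hardly leave that range. At 0.5 CPM BOLA-DQB kept its state in 20 heifers, with 512 and 557 changing beside 517. At 5 CPM the heifer that changed for BOLA-DQA2 was 519 and not 517. The Ensembl table was not run. The lowest levels rest on few reads, so off means under 1 CPM at this depth and not absence.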
